A study of Mus musculus with 6 samples.

Results

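The genes described here are Trp53, which encodes the transcription factor p53, together with Mdm2, Cdkn1a, Ccng1, Trp53inp1, Plk2, Plk3 and the Gadd45 family genes Gadd45a, Gadd45b and Gadd45g. They were chosen by symbol, as the rows of the deposited count table that carry these names, and all 10 were found among its 36333 rows. The libraries come from the pancreas of wild-type mice. The 3 cerulein samples came from mice given 10 intraperitoneal injections of cerulein (200 µg/kg/h, 200 µl) and were collected straight afterwards, and the 3 saline samples had received saline by the same route. Cerulein mimics cholecystokinin, and repeated doses overdrive the acinar cells and bring on an acute pancreatitis. The study asked which mRNAs and lncRNAs change in the early stage of that disease, and the labels give no strain, age or sex.

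p53 is a stress-activated transcription factor whose protein is held low by the ubiquitin ligase Mdm2, itself a p53 target, so that p53 activity is set largely at the protein level. Among its targets are Cdkn1a, encoding the cyclin-dependent kinase inhibitor p21, and Ccng1, encoding cyclin G1. Gadd45 proteins are small stress-induced proteins that bind the kinase Map3k4, upstream of the p38 and JNK kinases, and also PCNA. In the mouse pancreas Trp53inp1 is known as a gene induced during acute pancreatitis. Many of these genes also respond to other stress pathways, so their mRNA levels do not measure p53 activity.

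RefSeq promoter windows of GRCm38.p6, from 250 bases before a transcription start, were available for 9 of the 10 genes, with 2 windows for Cdkn1a. Trp53inp1 had no window and was not searched. Positions below are counted back from the start, with -1 the base before it. Cdkn1a and Ccng1 are shown because their windows hold the closest matches to the 20-base p53 response element consensus among these genes, each with 1 mismatch, which is in capitals.
Cdkn1a, chr17:29090879-29090978, plus strand, -100 to -1 of its upstream start: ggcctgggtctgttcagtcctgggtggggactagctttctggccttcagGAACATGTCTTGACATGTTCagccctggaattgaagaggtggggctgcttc
Ccng1, chr11:40755422-40755521, minus strand, -235 to -136: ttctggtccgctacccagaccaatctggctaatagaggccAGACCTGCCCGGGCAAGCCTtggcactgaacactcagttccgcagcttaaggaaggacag

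The consensus was searched as a pair of adjoining half-sites, with no spacer, in the 250 bases before each start. It is its own reverse complement, so a search of one strand covers both. Of 32851 such windows of all genes, 25 (0.0761%) held it with at most 1 mismatch. The other windows of these genes had 3 to 6 mismatches at best, and so did the window of the downstream Cdkn1a start, which lies 2790 bases away. The match in Cdkn1a spans -51 to -32 and that in Ccng1 -195 to -176. A match describes these letters only and does not show binding. Bases farther upstream or after a start were not searched, so the other genes may hold closer matches there.

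The Gadd45 windows are shown because the family members moved in different directions, with the words CCAAT and TATAAA in capitals.
Gadd45a, chr6:67037408-67037507, minus strand, -100 to -1: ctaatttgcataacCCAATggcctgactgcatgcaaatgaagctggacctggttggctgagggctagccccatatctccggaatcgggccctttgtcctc
Gadd45b, chr10:80929991-80930090, plus strand, -100 to -1: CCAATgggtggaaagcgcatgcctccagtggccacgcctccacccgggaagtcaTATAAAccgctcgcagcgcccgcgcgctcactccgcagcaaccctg
Gadd45g, chr13:51846575-51846674, plus strand, -100 to -1: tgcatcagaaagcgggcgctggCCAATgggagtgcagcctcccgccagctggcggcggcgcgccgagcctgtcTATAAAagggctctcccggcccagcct

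Each Gadd45 window held CCAAT, as did 33.8% of all windows on either strand, and the words do not overlap here. TATAAA was found in Gadd45b and Gadd45g and not in Gadd45a, and 12.4% of all windows held it on either strand. No match says only that these letters are not in this window.

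Total counts per library were 6307887 to 7610775 in cerulein and 5335117 to 7194125 in saline. Levels below are CPM (read counts relative to the library size as scaled by the TMM method), and a gene is called at a Benjamini-Hochberg adjusted p under 0.05 in edgeR's quasi-likelihood test over 12441 genes. Nothing in the labels says that the samples are separate animals, so p-values measure only the spread between these samples. Saline replicate 1 stood apart from the other saline libraries. Its summed acinar markers were 240764 CPM, where saline replicate 2 had 441502 and saline replicate 3 had 432664 CPM. Its summed neutrophil markers were 221 CPM, where the other saline libraries had 19.1 and 44.2 CPM. TMM gave 3574 genes higher and 3373 lower over the whole table. Upper-quartile factors gave 2895 higher and 4190 lower and shifted the all-gene median by -0.20 (log2), and library size alone gave 5181 higher and 1449 lower and shifted it by 0.56.

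Of the 10 genes, all of which passed the count filter, 6 were called higher after cerulein and 1 lower, and 3 were not called. Over all genes tested, 28.7% were called higher and 27.1% lower, 55.8% in all. A call with at least a 2-fold change was made for 4 of the 10 as higher and 0 as lower, against 18.3% and 17.7% of all genes. Of those 4, Gadd45a and Plk3 passed the count filter only because of their cerulein libraries, where they are high. In saline they had 3 to 13 and 9 to 26 counts. Gadd45a had the steepest rise, followed by Cdkn1a, Trp53inp1 and Plk3, which each rose more than 5-fold, and Trp53 and Gadd45b rose by less than 2-fold. Gadd45g fell, while Mdm2, Ccng1 and Plk2 were not called. The groups did not overlap for 7 of the 10 genes, 5 higher and 2 lower, against 63.0% of all genes tested, 32.4% higher and 30.6% lower. The median log2 fold change was 0.70 over these genes and 0.00 over all genes tested. In whole tissue, a change in the number of cells of a type and a change in RNA per cell cannot be told apart.

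**Figure D1:**
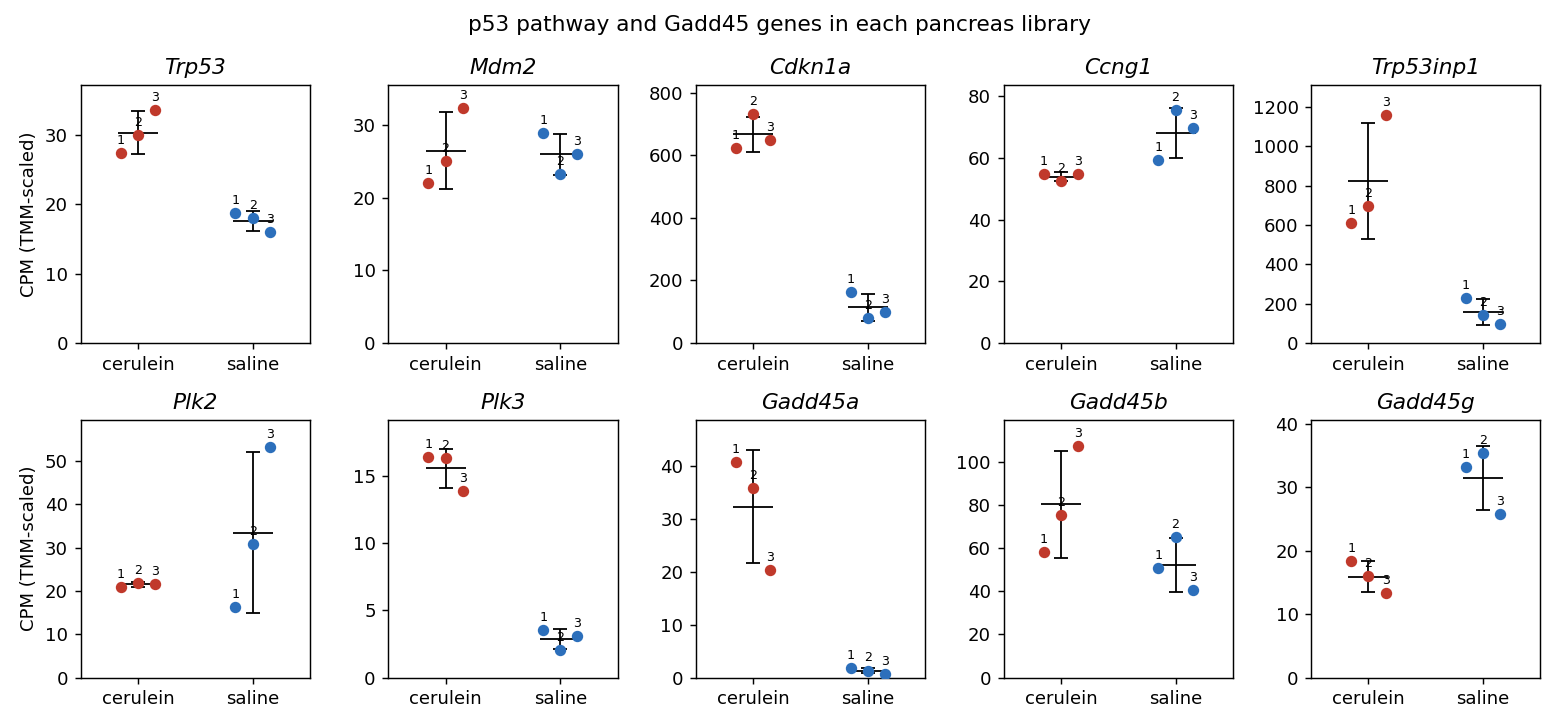
TMM-scaled CPM of each gene in the 3 cerulein libraries (left, red) and the 3 saline libraries (right, blue); numbers are replicates, bars the mean ± SD, and each y axis starts at 0. The groups are apart for Trp53, Cdkn1a, Ccng1, Trp53inp1, Plk3, Gadd45a and Gadd45g and overlap for Mdm2, Plk2 and Gadd45b.

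Trp53, at chr11:69580359-69591873 on the plus strand, had 27.5, 30.0 and 33.6 CPM in cerulein replicates 1, 2 and 3, and 18.7, 18.0 and 15.9 CPM in saline replicates 1, 2 and 3. Every cerulein library was above every saline library. The means were 30.3 ± 3.08 CPM in cerulein and 17.6 ± 1.43 CPM in saline (SD, n = 3 each). The log2 fold change was 0.78 ± 0.17 (SE, adjusted p = 0.00146, edgeR), or 1.72-fold with a 95% interval of 1.34 to 2.21. Trp53 kept its direction and its call in all 13 alternative fits.

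Mdm2, at chr10:117688875-117710758 on the minus strand, is both target and inhibitor of p53. It had 22.01, 25.0 and 32.3 CPM in cerulein replicates 1, 2 and 3, and 28.8, 23.2 and 26.0 CPM in saline replicates 1, 2 and 3. The saline values all lay inside the cerulein range. Its log2 fold change was 0.02 ± 0.19 (SE, adjusted p = 0.943, edgeR), with a 95% interval of 0.768-fold to 1.34-fold, and its sign differed between scalings and between fits that left out a library. For Cdkn1a, described below, the interval was 3.996-fold to 8.51-fold.

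Within a library, a ratio of a pair of genes does not depend on scaling. The log2 ratio of Mdm2 to Trp53, per kb of exon, was -0.65, -0.59 and -0.38 in cerulein replicates 1, 2 and 3, and 0.30, 0.04 and 0.37 in saline replicates 1, 2 and 3. The difference was -0.78, with no overlap between the groups. With 3 libraries against 3, a two-sided exact permutation test cannot give a p below 0.1, and this ratio reached p = 0.1 (0.117 adjusted over the 7 ratios and shares compared).

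Cdkn1a, at chr17:29090976-29100727 on the plus strand, had 625, 731 and 648 CPM in cerulein replicates 1, 2 and 3. In saline replicates 1, 2 and 3 it had 163, 80.6 and 98.5 CPM. The lowest cerulein library was well above the highest saline library, which was the one that stood apart. Its log2 fold change was 2.54 ± 0.25 (SE, adjusted p = 2.91e-06, edgeR), or 5.83-fold, and 2.87 without saline replicate 1. Only 3.84% of the genes tested had a higher log2 fold change. The log2 ratio of Cdkn1a to Trp53 per kb was 4.65 ± 0.17 in cerulein and 2.83 ± 0.48 in saline (SD, n = 3 each; two-sided exact permutation p = 0.1, the smallest possible), and it was higher in every cerulein library than in any saline library, whatever the scaling.

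Ccng1, at chr11:40748552-40755311 on the minus strand, carries the other near-match to the p53 consensus shown above. It had 54.7, 52.4 and 54.8 CPM in cerulein replicates 1, 2 and 3, and 59.3, 75.5 and 69.7 CPM in saline replicates 1, 2 and 3. Each cerulein library lay below each saline library, by a small margin at saline replicate 1. The log2 fold change of -0.33 ± 0.15 was not called (SE, adjusted p = 0.0669, edgeR). It was called at -0.46 without saline replicate 1 and at -0.53 with upper-quartile factors, and was 0.26 with library size alone. The log2 ratio of Ccng1 to Trp53 per kb was 1.04 ± 0.15 in cerulein and 2.16 ± 0.25 in saline (SD, n = 3 each; two-sided exact permutation p = 0.1, the smallest possible).

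Trp53inp1, at chr4:11156431-11174379 on the plus strand, encodes a nuclear stress protein that promotes p53 phosphorylation and takes part in autophagy. It had 611, 697 and 1161 CPM in cerulein replicates 1, 2 and 3, and 227, 142 and 96.4 CPM in saline replicates 1, 2 and 3. All cerulein libraries exceeded all saline libraries, and cerulein replicate 3 was the highest. The log2 fold change was 2.40 ± 0.35 (SE, adjusted p = 2.40e-04, edgeR), or 5.29-fold with a 95% interval of 3.08 to 9.09. Leaving out saline replicate 1 gave 2.74 and leaving out cerulein replicate 3 gave 2.09, and the call held in both fits.

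**Figure D2:**
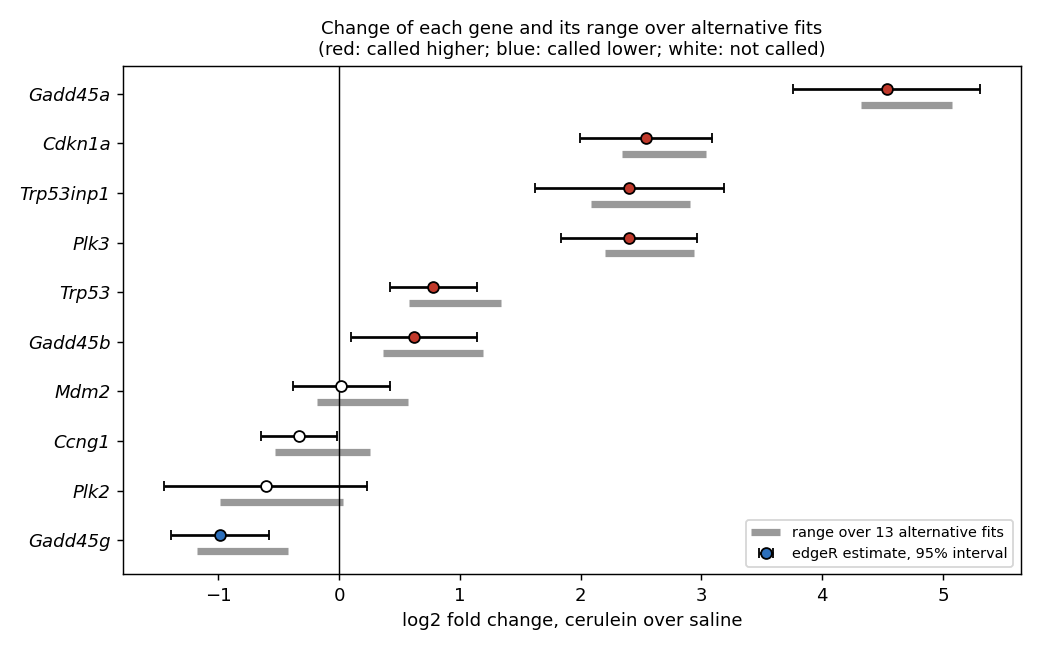
Log2 fold change of each gene, cerulein over saline (x axis), from edgeR with its 95% interval (points; red called higher, blue called lower, white not called) and the range over 13 alternative fits (grey bars). Gadd45a, Cdkn1a, Trp53inp1, Plk3, Trp53 and Gadd45b stay above 0 throughout, and Gadd45g stays below 0. The grey bars of Mdm2, Ccng1 and Plk2 cross 0. Gadd45b kept its direction but lost its call in 6 of the 13 alternative fits.

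Plk2 and Plk3 encode polo-like kinases of the stress response and differed from each other. Plk3, at chr4:117128655-117133963 on the minus strand, had 16.5, 16.4 and 13.9 CPM in cerulein replicates 1, 2 and 3, and 3.52, 2.03 and 3.09 CPM in saline replicates 1, 2 and 3. The groups were far apart. This was a log2 fold change of 2.40 ± 0.26 (SE, adjusted p = 5.97e-06, edgeR), or 5.27-fold. The saline values rest on 26, 9 and 12 counts in saline replicates 1, 2 and 3. Plk3 shares 84 exon bases with Tctex1d4 on the other strand, which had 0 to 3 counts in any library.

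Plk2, at chr13:110395046-110400844 on the plus strand, had 20.9, 21.9 and 21.7 CPM in cerulein replicates 1, 2 and 3. Saline replicates 1, 2 and 3 spread from 16.3 over 30.9 to 53.2 CPM, so that the cerulein values lay inside the saline range. The log2 fold change was -0.61 ± 0.37 (SE, adjusted p = 0.194, edgeR), with a 95% interval of 0.366-fold to 1.18-fold. Single saline libraries decided it. The value was -0.99 without saline replicate 1, where it was called, and -0.13 without saline replicate 3.

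Per kb, the log2 ratio of Plk2 to Plk3 was -0.36 ± 0.16 in cerulein and 2.59 ± 1.05 in saline (SD, n = 3 each), a difference of -2.94. Without saline replicate 1 the difference was -3.55, and without saline replicate 3 it was -2.60. Per kb, Plk3 was thus ahead in every cerulein library and Plk2 in every saline library (two-sided exact permutation p = 0.1, the smallest possible). That order in cerulein rests on the exon lengths used, 4491 bases for Plk2 and 2531 for Plk3. Undivided counts in cerulein replicates 1, 2 and 3 were 177, 187 and 172 for Plk2 and 139, 140 and 110 for Plk3. In saline, Plk2 was ahead by either measure.

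Gadd45a, at chr6:67035096-67037457 on the minus strand, was nearly absent from saline pancreas. It had 40.8, 35.9 and 20.3 CPM in cerulein replicates 1, 2 and 3, from 345, 307 and 161 counts. In saline replicates 1, 2 and 3 it had 1.76, 1.35 and 0.77 CPM, from 13, 6 and 3 counts. The log2 fold change was 4.53 ± 0.35 (SE, adjusted p = 5.56e-07, edgeR), or 23.2-fold with a 95% interval of 13.6 to 39.5, and 0.611% of genes tested had a higher one. Gadd45a shares 337 exon bases with the lncRNA gene E230016M11Rik on the other strand, which had 13 to 16 counts in cerulein and 3 to 7 in saline. How the counting treated such reads is not given in the sources used here.

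Gadd45b, at chr10:80930073-80932204 on the plus strand, is induced by NF-kB and TGF-beta signalling in other settings. It had 58.1, 75.2 and 107 CPM in cerulein replicates 1, 2 and 3, and 50.7, 65.3 and 40.4 CPM in saline replicates 1, 2 and 3. The groups overlapped, since cerulein replicate 1 lay below saline replicate 2. Its log2 fold change of 0.62 ± 0.24 was called by a narrow margin (SE, adjusted p = 0.0437, edgeR). The call was lost with upper-quartile factors, with the replicate number as a block (0.59, adjusted p = 0.0590, edgeR) and when cerulein replicate 2, cerulein replicate 3, saline replicate 1 or saline replicate 3 was left out. Without cerulein replicate 3 the value was 0.37, the lowest over all alternatives, and the adjusted p over the alternatives ran from 4.23e-04 to 0.197 (edgeR, limma or DESeq2).

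Gadd45g, at chr13:51846678-51848468 on the plus strand, had 18.3, 16.0 and 13.4 CPM in cerulein replicates 1, 2 and 3, and 33.2, 35.4 and 25.7 CPM in saline replicates 1, 2 and 3. All cerulein libraries were below all saline libraries. On the log2 scale the change was -0.98 ± 0.19 (SE, adjusted p = 6.25e-04, edgeR). Its call held in 12 of 13 alternative fits and was lost with library size alone, at -0.42 (adjusted p = 0.205, edgeR).

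The make-up of the Gadd45 family, which does not depend on the scaling of libraries, differed between the groups. Per kb of exon, Gadd45a made up 30.7%, 25.0% and 12.7% of the family sum in cerulein replicates 1, 2 and 3, and 1.63%, 1.06% and 0.916% in saline replicates 1, 2 and 3. Gadd45g made up 20.8%, 16.8% and 12.6% in cerulein replicates 1, 2 and 3, and 46.2%, 41.9% and 45.9% in saline replicates 1, 2 and 3. Neither share overlapped between the groups (two-sided exact permutation p = 0.1 each, the smallest possible). The share of Gadd45b was 60.4% ± 13.2 in cerulein and 54.1% ± 2.61 in saline (SD, n = 3 each; two-sided exact permutation p = 0.6), and it was highest in cerulein replicate 3, the library with the least Gadd45a among the cerulein samples. The family sum was 82.4 ± 7.58 CPM per kb in cerulein and 60.3 ± 12.2 CPM per kb in saline.

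**Figure D3:**
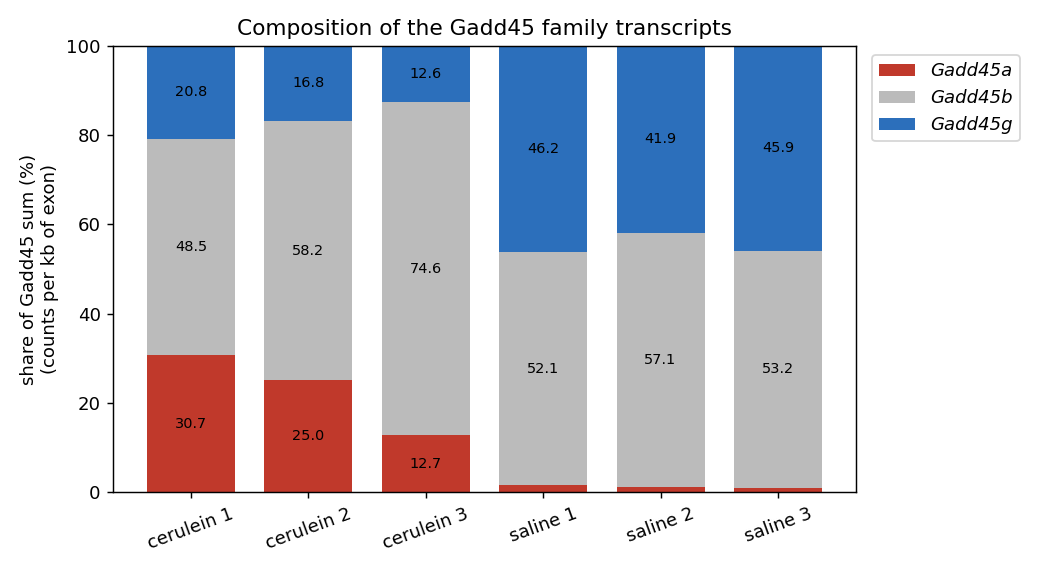
Share of Gadd45a, Gadd45b and Gadd45g in the sum of the family's counts per kb of exon (y axis, percent) in each library, cerulein on the left and saline on the right. Gadd45a holds 12.7% to 30.7% in cerulein and at most 1.63% in saline, and Gadd45g 12.6% to 20.8% in cerulein and 41.9% to 46.2% in saline.

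Levels per kb of exon place these genes in order. After cerulein, Cdkn1a led at 188 ± 15.7 CPM per kb, followed by Trp53inp1 at 127 ± 45.7 and Gadd45b at 50.5 ± 15.7 CPM per kb. Gadd45a, Ccng1 and Gadd45g came next at 18.3 ± 6.07, 15.4 ± 0.382 and 13.6 ± 2.12 CPM per kb, then Trp53 at 7.50 ± 0.762, Plk3 at 6.15 ± 0.576, Mdm2 at 5.21 ± 1.04 and Plk2 at 4.79 ± 0.111 CPM per kb (SD, n = 3). Neighbours whose ranges overlapped were Cdkn1a and Trp53inp1, Gadd45a and Ccng1, Ccng1 and Gadd45g, Plk3 and Mdm2, and Mdm2 and Plk2. In saline, Gadd45b, Cdkn1a, Gadd45g and Trp53inp1 led at 32.8 ± 7.89, 32.1 ± 12.2, 26.8 ± 4.32 and 23.9 ± 10.2 CPM per kb, and each overlapped the next. Ccng1 was at 19.4 ± 2.33 CPM per kb and overlapped Trp53inp1. Plk2 at 7.45 ± 4.15, Mdm2 at 5.12 ± 0.555 and Trp53 at 4.34 ± 0.354 CPM per kb overlapped in turn, and Plk3 at 1.14 ± 0.304 and Gadd45a at 0.734 ± 0.282 CPM per kb came last, with overlapping ranges. Gadd45a was the lowest of the 10 in saline and the fourth highest after cerulein.

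A list of 40 other genes reported as p53 targets was split. Of the 39 tested, 16 rose and 8 fell, against 28.7% and 27.1% of all genes, with a median log2 fold change of 0.45. The smallest p-values belonged to Sfn, which encodes the cell cycle inhibitor 14-3-3 sigma, Btg2, an antiproliferative gene, Gdf15, a stress cytokine, and Aen, an apoptosis nuclease. Sfn was at 72.9 ± 5.35 CPM in cerulein and 7.17 ± 0.360 CPM in saline, a log2 fold change of 3.33 ± 0.17. Btg2 was at 1090.2 ± 53.5 CPM in cerulein and 154 ± 7.87 CPM in saline, a log2 fold change of 2.82 ± 0.18. Gdf15 rose by 4.36 ± 0.36 and Aen by 1.62 ± 0.16 on the log2 scale, and Gdf15 was at 5.50 with saline replicate 1 left out. The adjusted p was 1.34e-08 for Sfn, 7.60e-08 for Btg2, 6.85e-07 for Gdf15 and 1.98e-06 for Aen (edgeR). Btg2, Gdf15 and others of the list also respond to other stress pathways.

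Further genes of that list were chosen after their values were seen. Genes linked to apoptosis went both ways. Pmaip1, Apaf1, Bbc3 and Bax rose by 2.40 ± 0.39, 1.49 ± 0.25, 1.02 ± 0.24 and 0.72 ± 0.20 on the log2 scale, and the death receptor gene Tnfrsf10b by 1.75 ± 0.28. Ei24 fell by 2.005 ± 0.25, and Perp at 0.22 ± 0.19, Fas at 0.13 ± 0.25 and Pidd1 at 0.05 ± 0.49 were not called. Among genes of DNA repair and damage tolerance, Ddb2 and Ercc5 fell by 1.76 ± 0.29 and 1.20 ± 0.25 and Polk, a translesion polymerase gene, rose by 0.78 ± 0.27, while Xpc at -0.72 ± 0.30 and Rrm2b at -0.06 ± 0.20 were not called. With saline replicate 1 left out, Xpc was called at -1.03, and the call of Polk was lost without cerulein replicate 3 or saline replicate 3. Library size alone ended the call of Ercc5, and upper-quartile factors that of Polk. Ddb2 shares 652 exon bases with Acp2, and Ei24 shares 324 with Gm26787, both on the other strand. How the counting treated such reads is not given, and their part in these falls was not tested. The sestrins, which restrain mTORC1 signalling, moved apart. Sesn1 had 11.7 ± 1.05 CPM in cerulein and 112 ± 45.7 CPM in saline, a log2 fold change of -3.26 ± 0.29, and Sesn2 had 73.3 ± 6.68 CPM in cerulein and 12.7 ± 10.2 CPM in saline, a log2 fold change of 2.44 ± 0.49 (adjusted p = 7.12e-06 and 0.00527, edgeR). Sesn2 had 24.4 CPM in saline replicate 1 and 5.63 and 7.97 CPM in the other saline libraries, and its log2 fold change was 3.41 with that library left out.

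**Figure D4:**
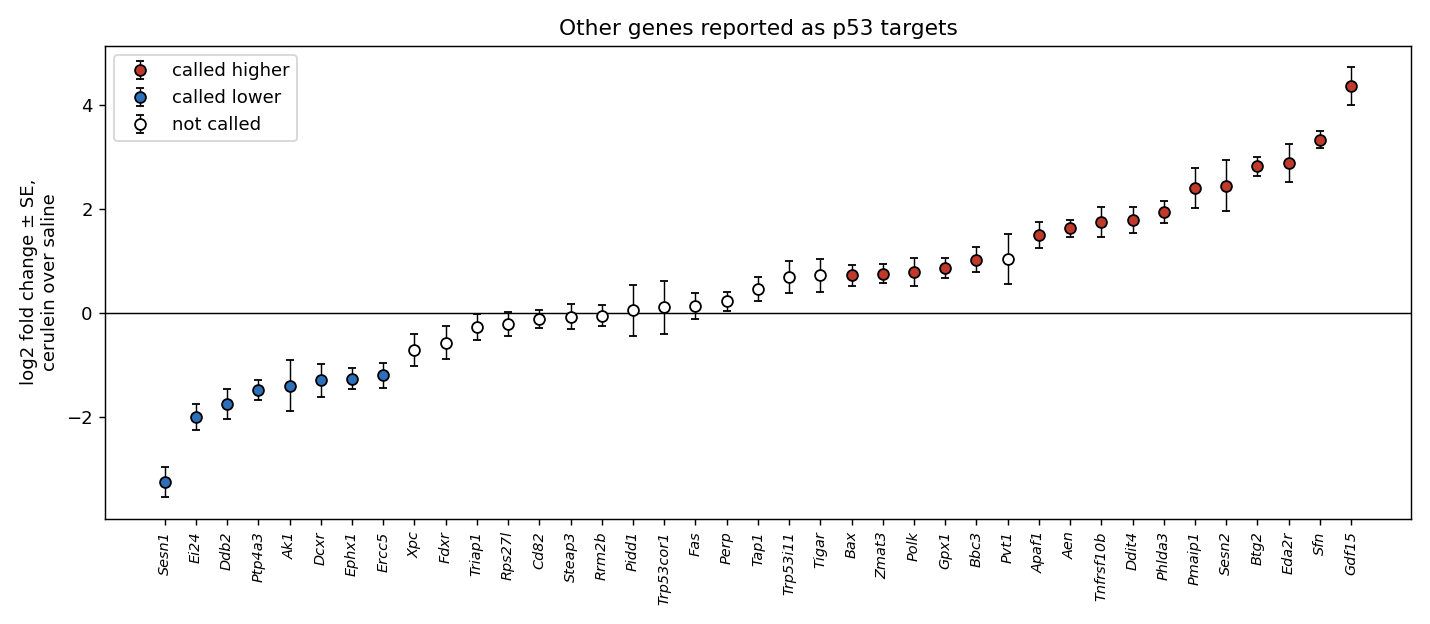
Log2 fold change ± SE, cerulein over saline (y axis), of the 39 tested genes of a list of other p53 targets, ordered by value; red points were called higher (16), blue lower (8) and white not called (15). Gdf15 is at the top with 4.36 and Sesn1 at the bottom with -3.26.

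Among 30 regulators and cofactors of p53, 24 were tested, 7 rose and 5 fell, against 28.7% and 27.1% of all genes, with a median log2 fold change of -0.07. Ppp1r13l, encoding the p53 inhibitor iASPP, rose by 2.05 ± 0.18 and Ppp1r13b, encoding the p53 cofactor ASPP1, by 1.81 ± 0.18 on the log2 scale (adjusted p = 8.64e-07 and 2.19e-06, edgeR). Trim24, a ubiquitin ligase for p53, and Atm, the kinase activated by DNA double-strand breaks, fell by 1.67 ± 0.17 and 2.42 ± 0.25 (adjusted p = 3.08e-06 and 4.23e-06, edgeR). Nfyb was listed at 0 in all libraries. RefSeq places it inside the span of Hcfc2 and GENCODE M21 gives no overlap, the annotation used for counting is unknown, and no change is given for it.

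Of 20 kinases and binding proteins that work with Gadd45, 16 were tested, 7 rose and 3 fell, against 28.7% and 27.1% of all genes, with a median log2 fold change of 0.16. Leaving out cerulein replicate 1, cerulein replicate 2 or saline replicate 3 left 1 called lower, and with library size alone 0 were. The smallest p-values were those of Map2k3, Mapkapk3, Mapkapk2 and Map3k5. Map2k3, a p38-activating kinase, was at 283 ± 42.2 CPM in cerulein and 22.4 ± 1.82 CPM in saline, a log2 fold change of 3.67 ± 0.19 (adjusted p = 1.41e-08, edgeR). The p38 substrate kinase genes Mapkapk3 and Mapkapk2 rose by 2.37 ± 0.15 and 1.75 ± 0.16, and Map3k5, encoding ASK1, a kinase upstream of both p38 and JNK, by 1.67 ± 0.17 on the log2 scale. The following genes are named after their values were seen. Of the p38 kinase genes, Mapk11 rose by 3.58 ± 0.43 (4.46 without saline replicate 1), and Mapk12 at 0.07 ± 0.41, Mapk13 at -0.02 ± 0.18 and Mapk14 at -0.01 ± 0.14 were not called, with signs that differed between fits. Map3k4, the kinase that Gadd45 proteins bind, fell by 0.71 ± 0.24, a call lost in each of the fits with 1 or 0 lower. The JNK genes Mapk8 and Mapk9 fell by 0.62 ± 0.23 and 0.74 ± 0.15. The call of Mapk9 was lost with library size alone, and Mapk8 kept its call in 5 of 13 alternative fits.

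Of 10 paralogues of these genes, 6 were tested, 3 rose and 3 fell, against 28.7% and 27.1% of all genes. Without saline replicate 2 or cerulein replicate 3, 1 was called higher, and with library size alone 0 were called lower. Ccng2, a paralogue of Ccng1, rose by 1.81 ± 0.22 on the log2 scale. Plk4, encoding a polo-like kinase of centriole duplication, and Cdkn1c, encoding the p21 relative p57, rose by 1.14 ± 0.39 and 0.79 ± 0.31 (adjusted p = 0.0235 and 0.0447, edgeR), and both are named after their values were seen. Upper-quartile factors ended both calls, as did leaving out cerulein replicate 3 or saline replicate 2, and the call of Cdkn1c was kept in 6 of 13 alternative fits and that of Plk4 in 9. Trp53inp2, an autophagy gene, fell by 1.02 ± 0.15 on the log2 scale, Cdkn1b, encoding the p21 relative p27, fell by 1.02 ± 0.17, and Mdm4, a partner of Mdm2, fell by 0.66 ± 0.19 (adjusted p = 1.60e-05, 7.01e-05, 2.30e-04 and 0.0110 for Ccng2, Trp53inp2, Cdkn1b and Mdm4, edgeR). The call of Mdm4 was also lost without cerulein replicate 2.

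Among 5 INK4 and other CDK inhibitors, 2 were tested. Cdkn2c fell, at -1.61 ± 0.35, and Cdkn2d was at 0.41 ± 0.27 and was not called. Cdkn2b was listed at 0 in all libraries and no change is given for it. RefSeq places it inside the span of Gm12610, and GENCODE M21 gives no overlap. With library size alone Cdkn2d was called higher, at 0.98. Of 25 cyclins, CDKs and proliferation genes, 17 were tested, 2 rose and 1 fell, against the 28.7% and 27.1% of all genes. The replication helicase genes Mcm6 and Mcm7 rose by 1.34 ± 0.23 and 0.89 ± 0.27 and the cyclin gene Ccnd3 fell by 0.40 ± 0.15 on the log2 scale, while Ccnd2, at 0.36 ± 0.15, was not called (adjusted p = 2.93e-04, 0.0141, 0.0346 and 0.0573 for Mcm6, Mcm7, Ccnd3 and Ccnd2, edgeR). Of the others, 8 were under the count filter and the rest were not called. In each fit that left out a library other than saline replicate 1, 0 genes of this list were called lower. The sign of Ccnd3 turned with library size alone, at 0.17, and the call of Mcm7 was lost without cerulein replicate 2. Mcm7, Ccnd3 and Ccnd2 share 557, 361 and 368 exon bases with other genes.

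Summed acinar, ductal, and monocyte and macrophage markers did not overlap between the groups, and the other sums did. The counts of called markers below stand against 28.7% of all genes tested called higher and 27.1% called lower. Summed acinar markers were 157146 to 199681 CPM in cerulein and 240764 to 441502 CPM in saline, with 7 of 8 called lower. Summed ductal markers were 933 to 1176 CPM in cerulein and 145 to 176 CPM in saline, and all 6 rose. Monocyte and macrophage markers summed to 570 to 673 CPM in cerulein and 209 to 438 CPM in saline, with 5 of 12 higher. Neutrophil markers summed to 50.3 to 121 CPM in cerulein and 19.1 to 221 CPM in saline, with 1 of 7 tested higher and Camp and Elane, named after their values were seen, at or near 0. Lymphocyte markers summed to 36.6 to 76.3 CPM in cerulein and 8.78 to 50.5 CPM in saline, with 1 of 7 tested higher and Ms4a1 at 0. RefSeq and GENCODE M21 both place Ms4a1 inside the span of 4930526L06Rik, and no change is given for it. Endothelial markers summed to 134 to 159 CPM in cerulein and 135 to 157 CPM in saline, with 1 of 6 higher and 2 lower. Fibroblast and stellate markers summed to 343 to 464 CPM in cerulein and 384 to 438 CPM in saline, with 2 of 7 higher and 1 lower, and islet markers to 1007 to 1670.1 CPM in cerulein and 798 to 1901 CPM in saline, with 1 of 6 lower. The part of these differences in the results above was not tested.

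Cdkn1a, Gadd45b and Trp53 were compared with all genes of average log2 CPM of at least 1 by the root mean square distance between log2 CPM profiles over the 6 libraries, each centred on its mean. The nearest to Trp53 were Cldn12, Tor1aip2 and Slc25a22, at distances of 0.05, 0.06 and 0.06 on the log2 scale. Ttc22, Rnd3 and Syde1 were nearest to Cdkn1a, at 0.08, 0.11 and 0.11, and Ints12, H2afx and Polk to Gadd45b, at 0.11, 0.14 and 0.14. These distances describe the 6 libraries only and were taken after a prior count of 2 was added. A small distance did not mean an equal change in edgeR. Ttc22 rose by 3.14 ± 0.50 (SE) on the log2 scale and Cdkn1a by 2.54. Ints12 was not called (adjusted p = 0.145, edgeR), while H2afx and Polk were called higher.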

How the data were processed

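For 6 mouse pancreas libraries, the deposited table holds raw counts of reads per gene, which were used unchanged. Per the submitters' processing notes, Trimmomatic, STAR, HTSeq and the mm10 build were used, and per the labels' protocols the kit was TruSeq Stranded mRNA. For versions, annotation and strand setting, the sources used here give nothing. The filterByExpr filter of edgeR 4.0.16 in R 4.3.3 (minimum count 10, minimum total 15) left 12441 genes, scaled by TMM and tested by the two-sided quasi-likelihood F test with robust shrinkage. P-values were adjusted over all genes tested. Standard errors and 95% intervals were derived from the F statistics. limma 3.58.1 and DESeq2 1.42.0 gave alternatives, and the test was checked on simulated data. CPM per kb used union exon lengths of GENCODE M21 (GRCm38). Profiles were compared with a prior count of 2. Promoter windows are RefSeq's (GRCm38.p6). Equal replicate numbers were not treated as pairs.

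The genes and lists were chosen with earlier results of these data known, so no p-value is given for any list. Named genes are the 10 themselves, the 4 of each other list with the smallest p, members listed at 0, and the 3 nearest profiles. Any other gene is marked in the text as picked with its values known. Reads carry no molecular identifiers and are not independent molecules.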

Additional observations from a re-analysis of the deposited data

How the results depend on the processing

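Of 130 alternative fits of the 10 genes, 113 kept direction and side of the threshold, including all 13 each for Trp53, Cdkn1a, Trp53inp1, Plk3 and Gadd45a. Mdm2, never called, was at -0.18 with upper-quartile factors, -0.0046 with limma-voom, and between -0.14 and 0.15 with a library left out. With library size alone Ccng1 was at 0.26 and Plk2 at 0.033, 1449 genes were lower, and 0 of the 10 genes, 4 other targets, 3 regulators (12 higher), 0 Gadd45 partners, 0 paralogues and 0 proliferation genes (9 higher) were lower, with 1 CDK inhibitor higher. Of the 10 genes, 2 were lower with upper-quartile factors, where Ccng1 was called at -0.53 and Plk2 was not called. Without a count filter 2 were lower as well, and there Plk2 was called at -0.53. Upper-quartile factors left 1 paralogue higher. Proliferation genes had 5 higher and 0 lower without a filter and 0 lower with DESeq2. Leaving out a library gave 1 to 3 of the 10 genes lower, 1 to 3 Gadd45 partners lower, 1 to 2 paralogues higher, 0 to 1 proliferation genes lower, and a Gadd45b share difference of -0.772 to 12.3 percentage points. The cause was not tested. Deviations from the group means correlated at 0.19, 0.22 and -0.15 between same-number libraries, and from -0.29 to 0.088 between libraries of different numbers. These correlations, from 3 libraries per group, cannot tell whether the replicate numbers pair the libraries. With the replicate block 3673 genes were higher and 3401 lower, 5 of the 10 genes were higher (Gadd45b was lost), and 4 proliferation genes were higher. Of the 37 list genes named as called, 25 kept call and sign in all 13 alternatives. Counts of 3 to 13 limit the saline level of Gadd45a, and counts of 9 to 26 that of Plk3.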
